A study of Mus musculus with 8 samples.

Results

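Aminoacyl-tRNA synthetases are the enzymes that load each tRNA with its amino acid, and their genes are described here across the knockdowns of Tip60 and Hdac6 in mouse embryonic stem cells (ESCs). The members were all genes named on the array as a cytosolic or mitochondrial synthetase in a list of 36, of the 30175 gene names that the array carries. They comprised 20 cytosolic and 16 mitochondrial enzymes, measured by 46 probes. The cells were E14 ESCs, a mouse line grown without feeder cells in serum and LIF, and the labels give E14 as a development stage. All 8 cultures were infected with lentivirus carrying a short hairpin RNA and harvested at 72 hours. Control KD (knockdown) ESCs received a hairpin against GFP, Tip60 KD ESCs a hairpin against Tip60 (gene Kat5, an acetyltransferase of the Tip60-p400 complex), Hdac6 KD ESCs a hairpin against the deacetylase Hdac6, and double KD ESCs both of the latter. Each group had 2 biological replicates, A and B, each on its own array. According to the study's methods each gene was targeted with a single hairpin, so that effects of that hairpin on other transcripts cannot be told apart from loss of its target.

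Protein synthesis in mammalian cells runs in separate compartments, each with its own charging enzymes. Cytosolic synthetases serve the ribosomes that translate nuclear messages, and several of them are held together in the multisynthetase complex. Mitochondrial synthetases are also encoded in the nucleus but serve the few proteins made inside the organelle, and their gene names carry a final 2. Most amino acids have a separate gene for each compartment, whereas Gars and Kars make both enzymes from the same gene. Many cytosolic synthetase genes are known targets of Atf4, the transcription factor of the amino acid stress response, which binds C/EBP-ATF response elements.

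Values are processed probe signals divided by the 75th percentile of the array and given on the log2 scale. Such a value is called a level, and a difference between group means of levels is called a change. A change was called where limma gave a Benjamini-Hochberg adjusted p under 0.1 over the 18034 genes tested. Levels of different genes come from different probes and were not set against each other. Of the members, 35 were tested. Nars2 lay at the lower limit of measurement (a level of -2.71) on all 8 arrays and was not tested. Wars2 lay above that limit on 3 arrays only, and every other tested member lay above it on all 8.

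The hairpins lowered their targets in the libraries labelled with them. The level of Kat5 was 1.34 and 1.37 on the control KD arrays, 0.00 and 0.01 upon Tip60 KD, 1.52 and 1.53 upon Hdac6 KD, and -0.11 and 0.20 upon double KD. The level of Hdac6 was 2.21 and 2.18 in control KD, 1.74 and 1.77 upon Tip60 KD, -0.28 and -0.32 upon Hdac6 KD, and 0.30 and 0.34 upon double KD. All 9 ESC markers were measured, and their summed signal, in multiples of the 75th percentile, was 329 to 330 in control KD, 333 to 344 in Tip60 KD, 319 on both Hdac6 KD arrays and 337 to 352 in double KD. The spots of Nanog and Tdgf1 were outliers on Tip60 KD array A and are missing from its sum. Of the ESC markers 3, 2 and 3 were called higher in Tip60, Hdac6 and double KD and 0, 0 and 1 lower, and Pou5f1, a core pluripotency factor, rose by 1.01 upon Tip60 KD (201% of control). Of 6 fibroblast markers 4 were tested and Postn was never above the limit, and the summed signal was 1.84 to 2.08 in control KD, 2.5 to 2.96 in Tip60 KD, 1.94 to 2.02 in Hdac6 KD and 2.64 to 2.91 in double KD. Of these, Col1a1 and Thy1 were called higher in Tip60 KD and double KD. Of 3 trophectoderm markers Cdx2 and Elf5 were never above the limit, and the remaining Krt8 gave 0.427 to 0.437, 0.926 to 1.19, 0.643 to 0.83 and 0.897 to 1.03 in the same order and was called higher in all 3 knockdowns. Of 4 endoderm markers 2 were tested (Gata6 and Afp were never above the limit; summed signal 0.43 to 0.561 in control KD and 0.306 to 0.65 in the others), of 3 mesoderm markers none, and all 3 neural markers were tested (1.42 to 1.79 in control KD and 1.49 to 1.99 in the others), and no endoderm or neural marker was called. Other cells in the cultures and expression of these markers within the ESCs cannot be told apart here. The part of either in the results below was not tested. In bulk RNA, fewer cells of a type and less RNA per cell cannot be told apart.

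Short stretches of promoters are shown because the core of the response element of Atf4 was found upstream of 3 cytosolic genes and of no mitochondrial gene examined. RefSeq windows of 300 bases, from 250 bases before the annotated start (build GRCm38.p6), were at hand for 27 members, 13 cytosolic and 14 mitochondrial. The core of the C/EBP-ATF response element, TGATGNAA on either strand, stood in 5 of the 13 cytosolic windows (38.46%), in 0 of the 14 mitochondrial windows and in 4.51% of the windows of 27025 genes. The E-box CACGTG, bound by Myc and related factors and overlapping that core in no member's window, stood in 4 cytosolic windows (30.77%), in 1 mitochondrial window (7.14%) and in 8.09% of all. The stretches below are 5′ to 3′ on the strand of the gene, upstream of its start, with the motif in capitals. The first 3 hold the element on the opposite strand, and the last 2 hold the E-box.
Aars, alanyl-tRNA synthetase, plus strand of chr8:111033714-111033753: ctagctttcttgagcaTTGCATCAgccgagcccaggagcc
Gars, glycyl-tRNA synthetase, plus strand of chr6:55037955-55037994: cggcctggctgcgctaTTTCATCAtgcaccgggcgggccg
Tars, threonyl-tRNA synthetase, minus strand of chr15:11399659-11399689: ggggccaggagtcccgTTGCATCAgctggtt
Iars, isoleucyl-tRNA synthetase, plus strand of chr13:49682045-49682082: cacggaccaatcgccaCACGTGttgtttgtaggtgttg
Farsb, the beta subunit of phenylalanyl-tRNA synthetase, minus strand of chr1:78488915-78488952: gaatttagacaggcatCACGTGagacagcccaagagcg
A match is a stretch of letters and not a measured binding site. Of these genes Tars and Iars were called lower in all 3 knockdowns, Gars upon Tip60 KD and Aars upon double KD. The remaining cytosolic genes with the element are Iars and Yars, where it lies after the start and is not shown. No match of either motif was found for Cars, Nars, Sars, Lars or Mars, some of which may have had no window. Yars was called in no knockdown, with changes of 0.07, 0.17 and 0.13. Farsb was also called in none, with changes between -0.16 and -0.01.

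Cytosolic synthetase genes were mostly lower in the knockdowns, and the mitochondrial genes were not. Upon Tip60 KD, 10 of the 20 cytosolic genes fell and 2 rose, where 20.1% of all genes tested fell, 19.7% rose and 39.8% were called either way. Of the 15 mitochondrial genes tested, 2 fell and 6 rose. Upon Hdac6 KD, 8 cytosolic genes fell and 0 rose, and 1 mitochondrial gene fell and 4 rose, where 14.9% of all genes fell, 14.0% rose and 28.9% were called. Upon double KD, 12 cytosolic genes fell and 1 rose, and 2 mitochondrial genes fell and 3 rose, against 16.9%, 15.9% and 32.8% of all genes. The median change of the cytosolic genes was -0.34, -0.28 and -0.33 in Tip60, Hdac6 and double KD, and that of the mitochondrial genes was 0.10, 0.00 and 0.07, with medians of all genes of 0.06, 0.03 and 0.05. These 3 comparisons share the control KD arrays.

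Each slide carried 1 array of every group and all arrays of a replicate letter, so the classes were also compared within slides. On the slide of replicate A the cytosolic median was -0.31, -0.30 and -0.37 in Tip60, Hdac6 and double KD, and on that of replicate B it was -0.31, -0.31 and -0.38. The mitochondrial medians were 0.08, 0.00 and 0.07 on the first slide and 0.18, 0.00 and 0.07 on the second. A group had the same place on either slide, so that place and group cannot be told apart. Arrays differed in signal over background, with 21896 to 40609 of 43020 spots well above it. On either slide the control KD array had the fewest, with 31179 against 39622 to 40609 on the first. On the second it had 21896 against 27056 to 40276. Within a slide, signal over background and control KD therefore cannot be told apart. Fewest of all were the spots of control KD array B. Without that array the cytosolic median was -0.35, -0.29 and -0.38 in Tip60, Hdac6 and double KD. The mitochondrial median was then 0.08, -0.01 and 0.07, and that of all genes 0.08, 0.04 and 0.07. Without control KD array A the cytosolic median was -0.26, -0.28 and -0.35. The mitochondrial median was then 0.19, 0.00 and 0.07, and that of all genes 0.02, 0.00 and 0.01. Leaving out an array mostly left fewer members called, and rises of mitochondrial genes were among the calls lost. Fewer of all genes were then called too, in every comparison. Leaving out each of the 8 arrays in turn, the cytosolic median lay between -0.35 and -0.22, between -0.29 and -0.26, and between -0.38 and -0.33 in Tip60, Hdac6 and double KD. With the replicate letter as a block, the members called upon Hdac6 KD numbered 21 in place of 13. Of all 18034 genes, 9557 were then called in place of 5218.

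**Figure D1:**
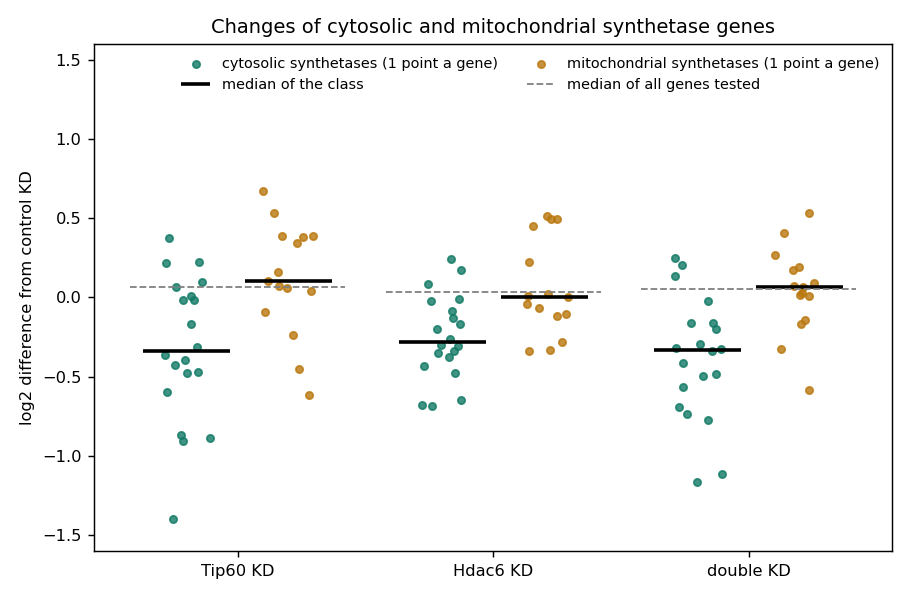
Log2 change from control KD (vertical axis) of each tested synthetase gene, 20 cytosolic and 15 mitochondrial, in the 3 knockdowns (horizontal axis); points are genes, thick lines the class medians and dashed lines the medians of all genes tested. The cytosolic medians lie at -0.34, -0.28 and -0.33, below the dashed lines, and the mitochondrial medians at 0.10, 0.00 and 0.07, near them.

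The largest fall among the members was that of Cars, which charges cysteine (probe at chr7:150743615-150743674, build mm9). Its level was 3.63 and 3.62 in control KD, 2.27 and 2.19 upon Tip60 KD, 3.01 and 2.87 upon Hdac6 KD, and 2.60 and 2.43 upon double KD. The 4 groups did not overlap, and Tip60 KD was lowest. The change was -1.40 ± 0.095 (SE) upon Tip60 KD, or 37.9% of control (adjusted p = 0.000745, limma). It was -0.69 ± 0.095 upon Hdac6 KD (62.1%, adjusted p = 0.00756) and -1.11 ± 0.095 upon double KD (46.2%, adjusted p = 0.00196).

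Nars, which charges asparagine, was lowest upon double KD. Its level was 3.25 and 3.18 in control KD, 2.26 and 2.35 upon Tip60 KD, 2.56 and 2.52 upon Hdac6 KD, and 2.03 and 2.07 upon double KD. The groups did not overlap. The changes were -0.91 ± 0.076 (53.3% of control, adjusted p = 0.00113), -0.68 ± 0.076 (62.6%, adjusted p = 0.00446) and -1.17 ± 0.076 (44.5%, adjusted p = 0.00125).

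Sars, the seryl-tRNA synthetase, fell mainly where Tip60 was knocked down. Its level was 3.70 and 3.64 in control KD, 2.86 and 2.70 upon Tip60 KD, 3.39 and 3.33 upon Hdac6 KD, and 2.99 and 2.79 upon double KD. The Tip60 KD and double KD arrays overlapped each other and lay below the Hdac6 KD arrays. The changes were -0.89 ± 0.10 (adjusted p = 0.00241), -0.30 ± 0.10 (adjusted p = 0.0942) and -0.77 ± 0.10 (adjusted p = 0.00557).

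Lars, the leucyl-tRNA synthetase and a sensor of leucine, had levels of 4.25 and 4.25 in control KD, 3.42 and 3.35 upon Tip60 KD, 3.71 and 3.84 upon Hdac6 KD, and 3.49 and 3.63 upon double KD. All 6 knockdown arrays lay below both control arrays. The changes were -0.87 ± 0.09, -0.47 ± 0.09 and -0.69 ± 0.09, with adjusted p-values of 0.00183, 0.018 and 0.00532. Mars, which charges the methionine of initiator and elongator tRNA, had levels of 2.75 and 2.55 in control KD, 2.23 and 2.12 upon Tip60 KD, 2.11 and 1.89 upon Hdac6 KD, and 2.00 and 1.83 upon double KD. The knockdown groups overlapped or adjoined each other and lay below control KD. The changes of Mars were -0.48 ± 0.13, -0.65 ± 0.13 and -0.73 ± 0.13, with adjusted p-values of 0.0335, 0.0188 and 0.0112.

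**Figure D2:**
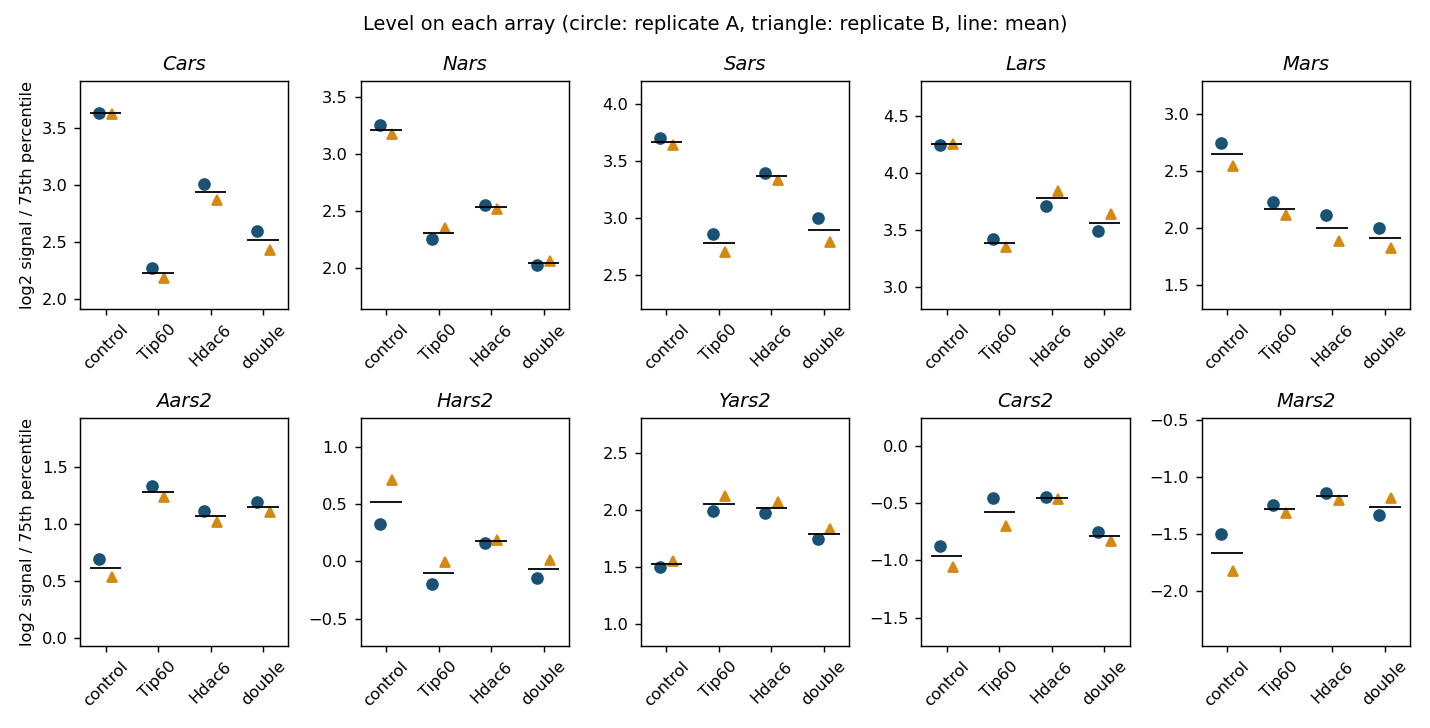
Levels (log2 of the signal over the array's 75th percentile, vertical axes of equal length) of the 5 cytosolic and 5 mitochondrial genes with the largest called changes, by group (horizontal axis); circles are replicate A, triangles replicate B and lines the group means. Cars, Nars, Sars, Lars and Mars lie lower on all knockdown arrays than on the control arrays, whereas Aars2, Yars2, Cars2 and Mars2 lie higher.

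Further cytosolic genes were called lower in each knockdown. Iars, for isoleucine, fell by 0.47, 0.31 and 0.42 upon Tip60, Hdac6 and double KD (± 0.095; adjusted p = 0.0137, 0.0711 and 0.0273). Tars, for threonine, fell by 0.42, 0.44 and 0.56 (± 0.12; adjusted p = 0.0437, 0.0546 and 0.0229). Kars, for lysine in both compartments, fell by 0.60 upon Tip60 KD (adjusted p = 0.0191) and by 0.48 upon double KD (adjusted p = 0.0476), with a change of -0.35 upon Hdac6 KD that was not called. The other dual enzyme, Gars, fell by 0.40 upon Tip60 KD only (adjusted p = 0.055), and its changes upon Hdac6 and double KD were -0.27 and -0.32.

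Dars, for aspartate, had levels of 1.22 and 1.16 in control KD, 1.29 and 1.29 upon Tip60 KD, 0.91 and 0.80 upon Hdac6 KD, and 0.88 and 0.83 upon double KD. It was lower in the groups with the Hdac6 hairpin (-0.34 ± 0.077 in each, adjusted p = 0.0309 and 0.0273) and not in Tip60 KD (0.10). Rars, for arginine, had levels of 0.71 and 1.00 in control KD, 1.06 and 1.09 upon Tip60 KD, 0.66 and 0.66 upon Hdac6 KD, and 0.47 and 0.58 upon double KD. It was called upon double KD only (-0.33 ± 0.11, adjusted p = 0.0879). Aars and Qars, for alanine and glutamine, were also called upon double KD only, with changes of -0.49 (adjusted p = 0.0624) and -0.20 (adjusted p = 0.0997).

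Hars, for histidine, rose upon Tip60 KD by 0.38 ± 0.10 (adjusted p = 0.0389), with changes of 0.24 and 0.20 upon Hdac6 and double KD that were not called. Farsa, the alpha subunit of the phenylalanyl enzyme, rose by 0.22 upon Tip60 KD (adjusted p = 0.0892) and by 0.25 upon double KD (adjusted p = 0.071). Eprs, Farsb, Vars and Yars were called in no knockdown, and their changes lay between -0.29 and 0.17. Yars had levels between -2.34 and -2.01, close to the lower limit.

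**Figure D3:**
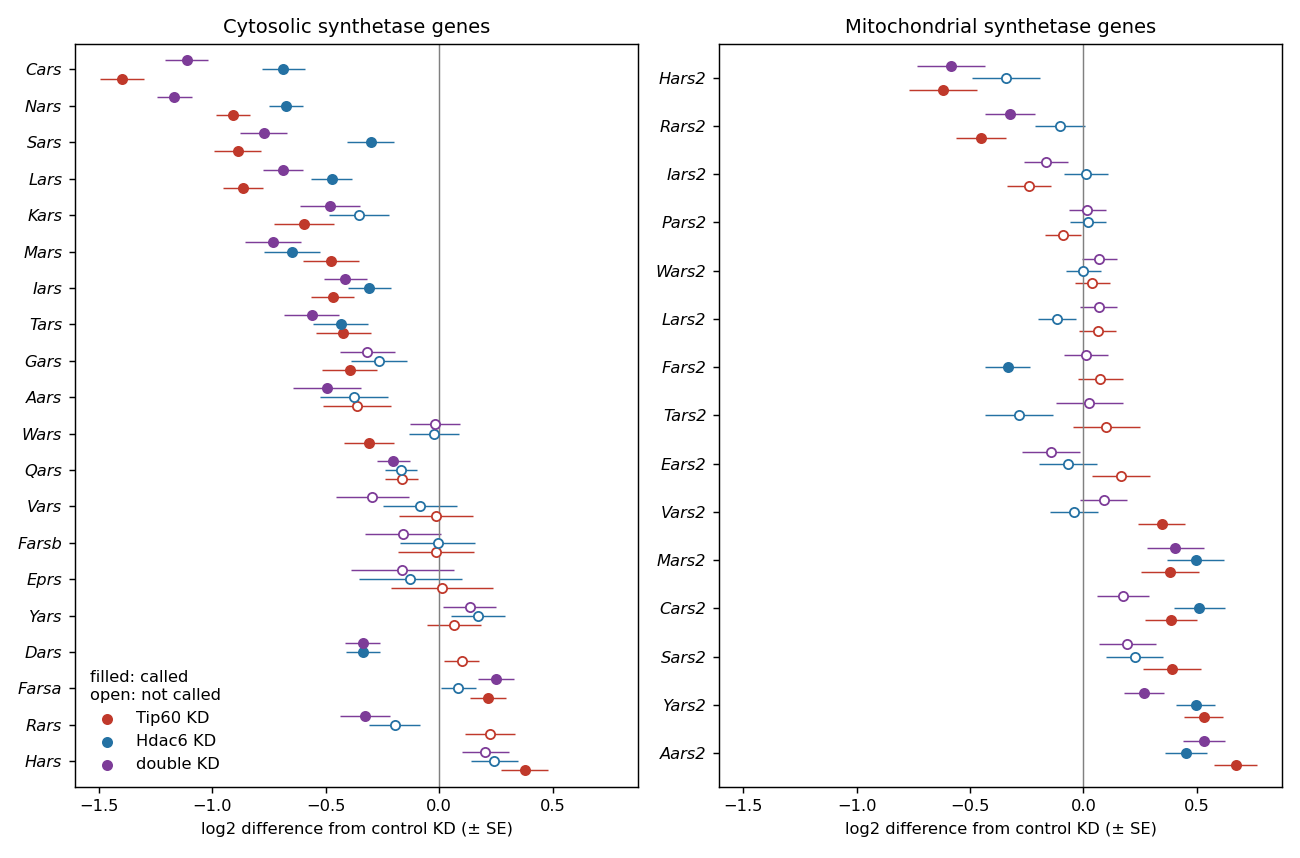
Log2 change from control KD with its standard error (horizontal axis) of the 35 tested members (vertical axis, ordered by the change upon Tip60 KD) in Tip60 KD (red), Hdac6 KD (blue) and double KD (purple). Filled points are called at an adjusted p under 0.1, and run from -1.40 for Cars upon Tip60 KD to 0.67 for Aars2 upon Tip60 KD.

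Among the mitochondrial genes, Aars2 rose most upon Tip60 KD and double KD, and Cars2 upon Hdac6 KD. Aars2 encodes the alanyl enzyme of the organelle (probe at chr17:45657547-45657606, build mm9). Its level was 0.70 and 0.53 in control KD, 1.33 and 1.24 upon Tip60 KD, 1.12 and 1.02 upon Hdac6 KD, and 1.19 and 1.10 upon double KD. All knockdown arrays lay above the control arrays. The changes were 0.67 ± 0.094 (159% of control, adjusted p = 0.00412), 0.45 ± 0.094 (137%, adjusted p = 0.0232) and 0.53 ± 0.094 (145%, adjusted p = 0.0123).

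Yars2, the mitochondrial tyrosyl enzyme, had levels of 1.50 and 1.55 in control KD, 1.99 and 2.12 upon Tip60 KD, 1.97 and 2.07 upon Hdac6 KD, and 1.75 and 1.84 upon double KD. Double KD lay between control KD and the single knockdowns, which overlapped. The changes were 0.53 ± 0.086 (adjusted p = 0.00683), 0.49 ± 0.086 (adjusted p = 0.0142) and 0.27 ± 0.086 (adjusted p = 0.0755). Cars2, the mitochondrial partner of Cars, had levels of -0.87 and -1.06 in control KD, -0.45 and -0.70 upon Tip60 KD, -0.44 and -0.46 upon Hdac6 KD, and -0.75 and -0.83 upon double KD. It rose by 0.39 upon Tip60 KD (adjusted p = 0.0488) and 0.51 upon Hdac6 KD (adjusted p = 0.0288), and its change upon double KD was 0.17.

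Mars2, for mitochondrial methionine, had levels of -1.50 and -1.82 in control KD, -1.25 and -1.32 upon Tip60 KD, -1.14 and -1.20 upon Hdac6 KD, and -1.33 and -1.18 upon double KD. It rose by 0.38, 0.49 and 0.41 (± 0.13; adjusted p = 0.0677, 0.0426 and 0.0681), and the control arrays differed from each other by nearly as much. Sars2 and Vars2, for serine and valine, rose upon Tip60 KD only, by 0.39 (adjusted p = 0.0647) and 0.34 (adjusted p = 0.052).

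Hars2, Rars2 and Fars2 were the mitochondrial genes called lower. Hars2 had levels of 0.32 and 0.71 in control KD, -0.19 and -0.01 upon Tip60 KD, 0.17 and 0.19 upon Hdac6 KD, and -0.15 and 0.01 upon double KD. It fell by 0.62 ± 0.15 upon Tip60 KD (adjusted p = 0.0259) and by 0.59 ± 0.15 upon double KD (adjusted p = 0.0387). Rars2, for mitochondrial arginine, had levels of 2.39 and 2.22 in control KD, 1.88 and 1.83 upon Tip60 KD, 2.26 and 2.14 upon Hdac6 KD, and 2.09 and 1.88 upon double KD. Its changes were -0.45 ± 0.11 (adjusted p = 0.0264), -0.10 ± 0.11 and -0.32 ± 0.11 (adjusted p = 0.087). Fars2 was lower upon Hdac6 KD only, with levels of 1.44 and 1.39 in control KD against 1.11 and 1.04 (-0.33 ± 0.099, adjusted p = 0.0648). Ears2, Iars2, Lars2, Pars2, Tars2 and Wars2 were called in no knockdown, with changes between -0.28 and 0.16.

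The classes could be compared amino acid by amino acid for 12 pairs of a cytosolic and a mitochondrial gene, each pair described by its changes. The cytosolic change was the lower in 10 pairs upon Tip60 KD and in 11 upon Hdac6 KD and upon double KD. Wars2 lay at the lower limit on all control KD and Hdac6 KD arrays and the probes of Wars disagreed, and without that pair, a choice made after seeing the data, the counts were 9, 10 and 10 of 11. Cars and Cars2 stood farthest apart upon Tip60 KD, at -1.40 and 0.39. Sars and Sars2 were at -0.89 and 0.39, Aars and Aars2 at -0.36 and 0.67, and Mars and Mars2 at -0.48 and 0.38. Both members of a pair were called in opposite directions in 4 pairs upon Tip60 KD, 2 upon Hdac6 KD and 2 upon double KD, and in the same direction in 0, 0 and 1. The 4 pairs were those of Cars, Sars, Mars and Hars, and in that of Hars the cytosolic gene was the higher. Aars was not called upon Tip60 KD. Of all genes tested 39.8%, 28.9% and 32.8% were called in either direction. The pair that went the other way in each knockdown was Hars and Hars2, adjacent genes transcribed away from each other, with changes of 0.38 and -0.62 upon Tip60 KD, 0.24 and -0.34 upon Hdac6 KD, and 0.20 and -0.59 upon double KD. Rars and Rars2 did so upon Tip60 KD, at 0.22 and -0.45.

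**Figure D4:**
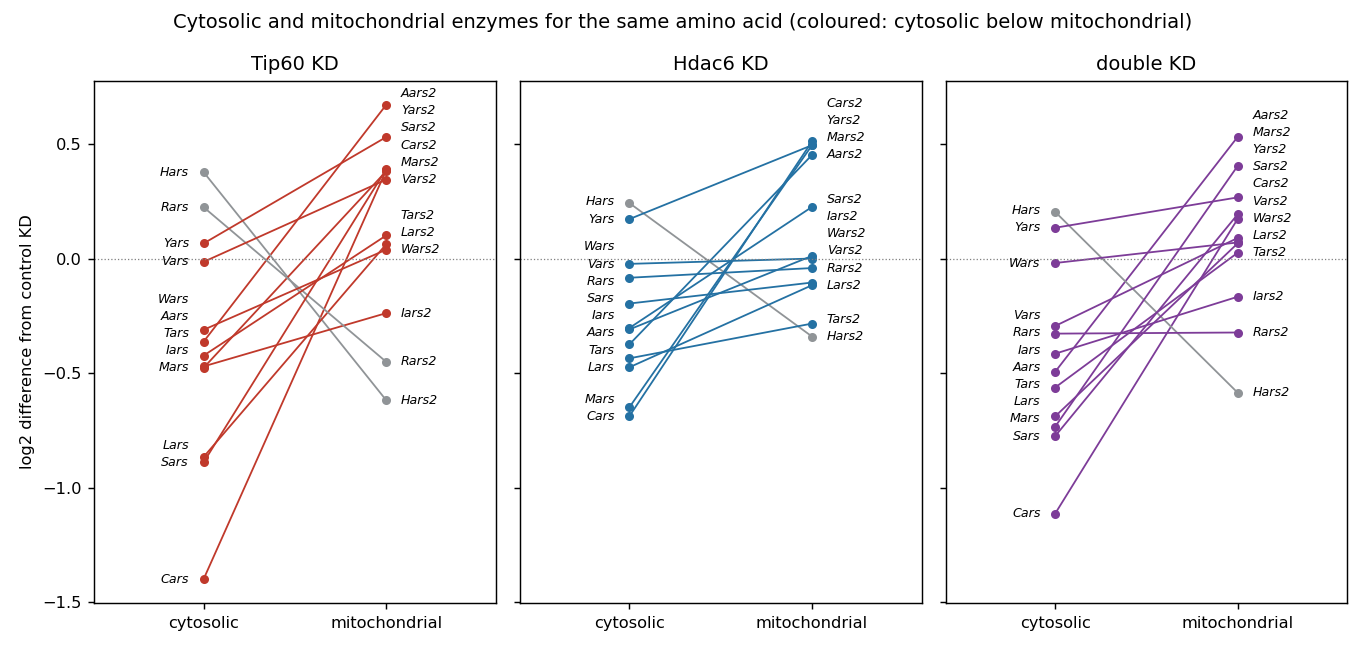
Log2 change from control KD (vertical axis) of the cytosolic and the mitochondrial gene for the same amino acid, joined by a line, for 12 amino acids in each knockdown; grey lines mark pairs in which the cytosolic change is the higher. Lines rise from left to right in 10, 11 and 11 pairs, and the Hars and Hars2 line falls in each panel.

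Among the cytosolic genes, the 10 known as Atf4 targets (Aars, Cars, Eprs, Gars, Iars, Mars, Nars, Sars, Tars and Wars) held most of the falls upon Tip60 KD. Of them 8 fell upon Tip60 KD, 6 upon Hdac6 KD and 7 upon double KD, and 0 rose, with median changes of -0.45, -0.34 and -0.53. Wars is counted among the falls upon Tip60 KD by its brighter probe only. Of the other 10 cytosolic genes 2, 2 and 5 fell and 2, 0 and 1 rose, with medians of 0.03, -0.13 and -0.25. Of all genes 20.1%, 14.9% and 16.9% fell and 19.7%, 14.0% and 15.9% rose. Not called among the targets were Eprs in each knockdown, at 0.01, -0.13 and -0.16, Aars upon Tip60 KD and Hdac6 KD, at -0.36 and -0.37, and upon Hdac6 KD and double KD both Gars, at -0.27 and -0.32, and Wars, at -0.02 in each. Lars and Kars were the genes outside the list that fell upon Tip60 KD.

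The 8 enzymes of the multisynthetase complex (Eprs, Iars, Lars, Qars, Mars, Rars, Kars and Dars) and the 12 outside it had medians of -0.32 and -0.34 upon Tip60 KD, -0.32 and -0.17 upon Hdac6 KD, and -0.38 and -0.31 upon double KD. Of the complex 4, 4 and 7 enzymes fell and 0 rose, Eprs being the exception upon double KD at -0.16. Outside it 6, 4 and 5 fell and 2, 0 and 1 rose. Of all genes 20.1%, 14.9% and 16.9% fell and 19.7%, 14.0% and 15.9% rose. Synthetases also divide by fold into class I and class II. Among the cytosolic genes 5, 4 and 6 of 9 in class I and 5, 4 and 6 of 10 in class II fell, and Eprs, which joins an enzyme of each class, belongs to neither. Among the mitochondrial genes 4, 3 and 2 of 9 in class I and 2, 1 and 1 of 6 tested in class II rose. In class I 1, 0 and 1 fell, and in class II 1, 1 and 1. Several of these mitochondrial counts lie near the shares of all genes.

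Of 12 genes that act beside the synthetases 3, 3 and 2 rose and 2, 1 and 2 fell, counts near the shares of all genes that rose (19.7%, 14.0% and 15.9%) and fell (20.1%, 14.9% and 16.9%). Dtd1, a deacylase that clears tRNA charged with D-amino acids, fell by 1.14 upon Tip60 KD (adjusted p = 0.00432) and by 0.75 upon double KD (adjusted p = 0.023). Gatb, a subunit of the mitochondrial enzyme that makes glutaminyl-tRNA from glutamyl-tRNA, rose by 0.70 upon Tip60 KD (adjusted p = 0.0126) and 0.45 upon Hdac6 KD (adjusted p = 0.0702). Sepsecs, which completes selenocysteinyl-tRNA, rose by 0.59, 0.45 and 0.43 (adjusted p = 0.00745, 0.0273 and 0.0273).

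Of 20 genes of the Atf4 amino acid stress response 19 were tested, and 13, 11 and 12 fell while 0 rose, with median changes of -0.71, -0.55 and -0.57, where 20.1%, 14.9% and 16.9% of all genes fell. Ddit4, a brake on mTORC1, fell by 2.14, 1.58 and 1.68 (adjusted p = 0.00041, 0.00113 and 0.000789). Chac1, which degrades glutathione, fell by 1.43, 1.28 and 0.78 (adjusted p = 0.000521, 0.0015 and 0.0023). Atf4 itself had levels of 4.64 and 4.46 in control KD, 3.81 and 3.88 upon Tip60 KD, 3.45 and 3.59 upon Hdac6 KD, and 4.04 and 4.07 upon double KD. The knockdown arrays all lay below the control arrays, and those of Hdac6 KD were lowest.

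Elongation factors, which bring charged tRNA to the ribosome and move the ribosome along, were also read by compartment. Of 5 cytosolic factors 1, 2 and 2 fell and 0 rose, where 20.1%, 14.9% and 16.9% of all genes fell. Eef1g, a subunit of the exchange factor for eEF1A, was at -0.60, -0.35 and -0.53 (adjusted p = 0.00621, 0.0508 and 0.0128), and Eef1b2, another subunit, fell by 0.42 upon Hdac6 KD (adjusted p = 0.0372) and by 0.35 upon double KD (adjusted p = 0.0592). Of 6 mitochondrial factors 2, 1 and 1 rose and 0, 0 and 1 fell, where 19.7%, 14.0% and 15.9% of all genes rose, but Mtif3, counted among the rises upon Tip60 KD, was above the lower limit on the Tip60 KD arrays alone and so passed the filter through that group. Tufm, the mitochondrial counterpart of eEF1A, was at 0.46, 0.23 and 0.46 (adjusted p = 0.00816, 0.0904 and 0.0114).

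The single knockdowns were then set against each other. Of all genes tested, 12.1% were higher and 11.3% lower in Tip60 KD than in Hdac6 KD, 23.5% in all. Of the 35 members 4 were higher and 5 lower, a share near that of all genes. Lower upon Tip60 KD were Cars (-0.71 ± 0.095, adjusted p = 0.00847), Sars (-0.59 ± 0.10, adjusted p = 0.0169), Lars (-0.39), Rars2 (-0.35) and Nars (-0.23). Higher were Dars (0.44 ± 0.077, adjusted p = 0.0172), Rars (0.42), Fars2 (0.41) and Vars2 (0.39). Cars, Sars and Dars held under all 18 alternatives in which single genes were fitted, whereas Nars did not under 12. With the replicate letter as a block 19 of the 35 members were called, a larger share than the 7487 of 18034 genes.

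Few members differed between double KD and Tip60 KD. Of all genes tested 3.70% were called, and of the members Dars and Rars. Dars was lower upon double KD by -0.44 ± 0.077 (adjusted p = 0.0768) and Rars by -0.55 ± 0.11 (adjusted p = 0.0926). Both calls were lost when any array was left out. Nearly all calls among all genes were lost with them, so that the loss is not particular to Dars and Rars. With the replicate letter as a block 9 members were called, a share near that of all genes (4734 of 18034). Cars was at 0.29 (adjusted p = 0.211) and Nars at -0.26 (adjusted p = 0.174).

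The interaction compares the change upon double KD with the sum of the changes upon the single knockdowns. It was called for 22.0% of all genes and for 6 of 35 members, a smaller share. With the replicate letter as a block it was called for 8490 of 18034 genes and 21 of 35 members, a larger share. Whether the share of the members is smaller or larger therefore depends on the fit. Cars, Lars and Nars fell less upon double KD than that sum, by 0.97 ± 0.13, 0.65 ± 0.13 and 0.42 ± 0.11. Yars2, Cars2 and Aars2 rose less than the sum, at -0.76 ± 0.12, -0.72 ± 0.16 and -0.59 ± 0.13. For Cars the double KD change of -1.11 stood between that of Hdac6 KD, -0.69, and that of Tip60 KD, -1.40, and for Yars2 the double KD change of 0.27 was smaller than either of 0.53 and 0.49. The level of Hdac6 was 27.3% of control in double KD, 17.8% in Hdac6 KD and 73.9% in Tip60 KD. A weaker knockdown of Hdac6 in double KD and an interaction of the knockdowns cannot be told apart here.

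Several probes of the same gene passed the filter for 5 members (Cars2, Farsa, Iars2, Tars2 and Wars), and the brightest was used. The probes of Wars, for tryptophan, were called in opposite directions upon Tip60 KD, at -0.31 for the brighter probe (chr12:110098245-110098304) and 0.26 for the other (chr12:110104366-110104425, adjusted p = 0.0444 over all probes), and upon Hdac6 KD they were at -0.02 and 0.32. The direction of Wars therefore depends on the probe. The second probe of Farsa rose by 0.80 upon Tip60 KD, where the first rose by 0.22, and the second probe of Tars2 rose by 0.62, where the first was at 0.10. The second probe of Cars2 was at 0.29, 0.15 and 0.24 in Tip60, Hdac6 and double KD (adjusted p = 0.0323, 0.243 and 0.0718 over all probes), where the first was at 0.39, 0.51 and 0.17, so that the calls of Cars2 upon Hdac6 and double KD depend on the probe. The probes of Iars2 differed in sign upon Tip60 KD, at -0.24 and 0.17.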

How the data were processed

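RNA of 8 E14 ESC cultures was labelled with Cy3 and hybridised to Agilent arrays of 1 colour. Per the file headers, the authors quantified spots with Agilent Feature Extraction (10.7.1.1), and the deposited intensity used here is the processed signal, from which that software subtracted a background and a spatial trend, without scaling between arrays. The deposited log2 values of the series matrix rank probes as the median signal does and have nearly equal medians (8.19 to 8.20), and how they were normalized is not given in the sources used here.

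Outlier spots were set to missing, spots of a probe averaged, signals divided by the array's 75th percentile, raised to a floor (0.153 of it, log2 -2.71, the highest over arrays of the lowest signal well above background) and converted to log2. Probes that exceeded both background and floor on 2 or more arrays were kept (22594 of 39429), and a gene took its brightest probe. limma 3.58.1 in R 4.3.3 fitted all 8 arrays in 4 groups with no block (4 residual and 1.84 prior degrees of freedom), 2-sided, with a precision limited by the number of arrays. The fit was run on simulated data with independent arrays and with changes larger than most of those of the members. The real arrays were paired by slide, so that run cannot show how the fit performs on them. Figures were drawn in Python 3.11.15 (matplotlib 3.10.9).

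The letters A and B coincide with slides and paired the arrays: replicate differences correlated across genes in all 6 pairs of groups (0.651 to 0.799), so a fit with the letter as a block was also made. Members, gene lists and tests were chosen with earlier results of these data known. Values on all arrays are given for the 5 largest called changes of each class, the targeted genes, and further called members by size. Levels of some other members with calls were added after their values were seen. Probe positions are mm9 and promoters GRCm38.p6; neither was converted, and no genome or protein sequence was used.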

Additional observations from a re-analysis of the deposited data

Results flagged for a closer look

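The interaction term of the limma fit tests whether the effect of the knockdowns together differed from the sum of their single effects. It was called for 6 of 35 synthetase genes, a smaller share than the 22.0% of all genes tested. With the replicate letter as a block it was called for 21 of 35, a larger share than the 8490 of 18034 genes. The interaction was 0.97 for Cars (adjusted p = 0.0128), 0.65 for Lars (adjusted p = 0.0275) and 0.42 for Nars (adjusted p = 0.0568), all of which were lower in each knockdown. It was -0.76 for Yars2 (adjusted p = 0.0176), -0.72 for Cars2 (adjusted p = 0.0386) and -0.59 for Aars2 (adjusted p = 0.039). Cars and Yars2 were called under all 17 alternatives in which the term was fitted gene by gene, and Nars lost its call under 8. The value of Cars2 is that of its brighter probe, and its other probe differed in which knockdowns were called. Hdac6 was lowered less in double KD (27.3% of control) than in Hdac6 KD (17.8%). This difference and an interaction of the knockdowns cannot be told apart.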

How the results depend on the processing

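With each gene read from its brightest probe or the mean of its probes, no called change of a synthetase gene took the opposite sign under the alternatives fitted gene by gene (1218 recomputed values of 68 called differences, of which 294 lost the call and 22 differences lost it under no alternative). Wars upon Tip60 KD was the exception among single probes, at -0.31 for its brighter probe and 0.26 for the other. Numbers of members called moved as follows. The replicate block gave 21 for Hdac6 KD (from 13), 19 for Tip60 against Hdac6 KD (from 9), 9 for double against Tip60 KD (from 2) and 21 for the interaction (from 6), and did not move the 20 and 18 of Tip60 and double KD by over 1.5 times (25 and 25). Series matrix values gave 8 for Hdac6 KD, 10 for double KD, 5 for Tip60 against Hdac6 KD and 0 for double against Tip60 KD. All genes called then numbered 4053, 4378, 3375 and 111. Fitting only the arrays of the groups compared gave 13 for Tip60 KD, 11 for double KD, 4 for Tip60 against Hdac6 KD and 0 for double against Tip60 KD. The counts of all genes were then 6044, 4220, 2403 and 0. An adjusted p under 0.05 left 11 for double KD, 5 for Tip60 against Hdac6 KD and 0 for double against Tip60 KD, which was 1 with normexp background correction, 1 with a low floor, 1 with no filter on dim probes and 5 with any probe of a gene. For double against Tip60 KD, normexp, the low floor and no filter called 660, 343 and 774 of all genes. Quantile normalisation and any probe of a gene gave 10 and 10 for the interaction. With quantile normalisation it was called for 4149 of all genes. Leaving out each array in turn gave 11 to 17 for Tip60 KD (lowest without control KD A, 13 without Tip60 KD B), 5 to 13 for Hdac6 KD (5 without Hdac6 KD B, 6 without control KD B, 7 without Hdac6 KD A), 9 to 14 for double KD (9 without control KD A, control KD B or double KD B, 10 without double KD A), 3 to 8 for Tip60 against Hdac6 KD (3 without Tip60 KD B or Hdac6 KD B, 5 without Tip60 KD A or Hdac6 KD A), 0 to 0 for double against Tip60 KD and 3 to 6 for the interaction (3 without Hdac6 KD A or double KD B); a lone array is then assumed to vary like the other groups. The cause was not tested. Of the 54 differences from control KD that were not called, 26 gained a call under at least 1 alternative, and 74 of their 966 recomputed values had the opposite sign. Members near background, Yars and Wars2 above all, are limited by signal over background.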
